A study of Mus musculus with 8 samples.

Results

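The cytosolic ribosomal protein genes, which encode the proteins of the small (Rps) and large (Rpl) ribosomal subunits, were followed across 4 groups of mouse embryonic stem cells. Members were the genes whose symbol is Rps or Rpl followed by a number, with an optional letter, together with Rplp0, Rplp1, Rplp2 and Rpsa, where the array named them by a single symbol. Of the 18193 genes with such a probe set, 49 met this rule. They comprised 43 core members (21 of the small and 22 of the large subunit) and 6 paralogues whose symbols end in l or l1, which were treated apart. For each gene the probe set with the brightest average across arrays stood for it, and all values are deposited log2 normalized intensities.

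The study asked how altered expression of GTF2I changes gene expression. Gtf2i encodes the transcription factor TFII-I, and Hprt encodes a purine salvage enzyme. The wild-type group carried no labelled mutation, and its parental line is not named in the labels. Gene targeting in R1 embryonic stem cells gave the exon 2 mutant, with the genotype Δexon2/+. The Hprt knockout was labelled HPRT -/-, with no Gtf2i mutation. The trap line was a gene-trap derivative of the AB2.2 line with the genotype HPRT -/-:GTF2I +/-. Each group was 1 line with 2 arrays, and all lines were grown with LIF and Knockout Serum Replacement on a monolayer of feeder cells. The arrays are titled as biological replicates, but whether the cultures were separate is not stated. The p-values therefore measure the spread between these arrays, which may be technical. No batch is named in the labels, the exon 2 mutant arrays carry a separate registration, and batch and line cannot be told apart.

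A ribosome holds a single copy of nearly every one of these proteins, so cells make them in matched amounts. Their messages begin with a pyrimidine-rich TOP motif, which places their translation under mTOR control, MYC proteins raise their transcription, and protein that finds no ribosome is degraded. A few core proteins have paralogues that can take their place and that are made in certain tissues only. Embryonic stem cells divide fast and carry high levels of these messages.

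Promoters were read from RefSeq (GRCm38.p6) for 43 of the 49 members. The windows of 60 bases below run from 50 bases before to 10 after the annotated start, and are shown for the 6 tested members with a window whose group means spanned the widest range (Rps4l had no window), with Rpl22 as the parent of Rpl22l1 for comparison. Capitals mark each CTTTC, a short pyrimidine run searched on both strands. All marked stretches lie before the annotated start, so outside the message. Other pyrimidine runs, such as that across the start of Rpl14, are not marked. The capitals therefore do not tell which of these messages begin with a TOP motif. CCGGAAG, an ETS-type motif, and CACGTG, the E-box bound by MYC, were searched too and occur in none of the windows shown.
Rpl22, chr4:152325676-152325735, plus strand, the first of 2 listed starts: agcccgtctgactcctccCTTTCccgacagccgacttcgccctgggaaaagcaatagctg
Rpl22l1, chr3:28805458-28805517, plus strand: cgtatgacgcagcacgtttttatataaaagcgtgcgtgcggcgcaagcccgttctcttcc
Rpl39l, chr16:10170178-10170237, plus strand: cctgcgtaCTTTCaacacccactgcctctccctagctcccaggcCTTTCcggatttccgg
Rpl7l1, chr17:46782647-46782706, minus strand: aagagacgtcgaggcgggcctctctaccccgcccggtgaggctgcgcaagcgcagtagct
Rps25, chr9:44407664-44407723, plus strand: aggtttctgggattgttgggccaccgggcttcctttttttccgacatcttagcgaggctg
Rpl12, chr2:32961662-32961721, plus strand: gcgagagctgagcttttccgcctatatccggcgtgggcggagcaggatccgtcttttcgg
Rpl14, chr9:120571467-120571526, plus strand: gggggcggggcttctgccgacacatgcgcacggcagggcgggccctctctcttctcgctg

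In the full windows of 300 bases, CCGGAAG lay on either strand in 43.2% of the 44 windows of 38 core members and in 8.86% of all 32851 promoter windows. CTTTC lay in 84.1% of core windows and 57.3% of all windows over the 300 bases. Within 20 bases on each side of the start, on the strand of the gene, it lay in 25.0% of core windows and 5.49% of all windows. CACGTG lay in 11.4% and 7.15%. The 7 windows of 5 paralogues held CCGGAAG in 28.6%, CTTTC in 71.4% and CACGTG in 0.0%. These are matches of letters, not binding sites.

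The arrays behind these values had medians of 5.96 to 6.02 and maxima of 15.03 to 15.09 on the log2 scale, and 13819 genes passed the filter on dim signals and were tested. Hprt read 12.08 and 12.25 as group means in wild-type and exon 2 mutant cells and 10.04 and 10.74 in the Hprt knockout and the trap line. Gtf2i read 10.12 and 10.48 in wild-type and exon 2 mutant cells, and 10.90 and 10.09 in the Hprt knockout and the trap line. Where its probe set lies relative to the deleted exon or the trap was not checked. All 15 embryonic stem cell markers measured, Pou5f1, Nanog and Sox2 among them, lay above the filter level on every array. Feeder fibroblast markers differed strongly. The log2 summed level of 29 of them was 18.00 to 18.01 in wild-type, 17.35 to 17.38 in the exon 2 mutant, 17.43 to 17.45 in the trap line and 14.47 to 14.48 in the Hprt knockout. Of the 29, 26 to 27 remained above that filter on the Hprt knockout arrays, where Col1a1 read 6.48 and Lum 5.24. The 2 Hprt knockout arrays stand apart from the rest. The first of them had a correlation of 0.866 with the first wild-type array, 0.889 with the first trap array and 0.919 with the first exon 2 mutant array. Arrays of the other lines correlated between lines at 0.967 to 0.979, and arrays of a group at 0.997 to 0.998.

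Most core members gave nearly the same high signal in all 4 lines. For 34 of the 43 the means ran from 13.65 for Rpl27 to 14.71 for Rpl41, the smallest ribosomal protein, and the next lower mean was 11.09. These 34 are called bright members, a division chosen after the data were seen. They stood at or above percentile 99.5 of the array. Their group medians were 14.33 in wild-type and 14.38, 14.38 and 14.37 in exon 2 mutant, Hprt knockout and trap cells. Between the highest and the lowest of its 4 group means, a bright core member spanned a median of 0.11 on the log2 scale, from 0.035 to 0.22, while the median was 0.21 over the 43 other tested genes at least as bright as Rpl27 and 0.59 over all tested genes. These signals lie close to the array maxima, which may limit how far they can rise. That was not tested, and the dimmer probe sets of the same genes are described further on. In 0 of the 34 did any pair of lines differ by more than 1.2-fold. The log2 summed level of all 43 core members was 19.40 to 19.41 in wild-type and 19.44 to 19.45 in the trap line, with 19.46 for the exon 2 mutant arrays and 19.47 for those of the Hprt knockout. A probe set's level cannot be set against another gene's, because probes differ in how well they bind. In cells grown on feeders, fewer cells of a type and less RNA per cell cannot be told apart.

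**Figure D1:**
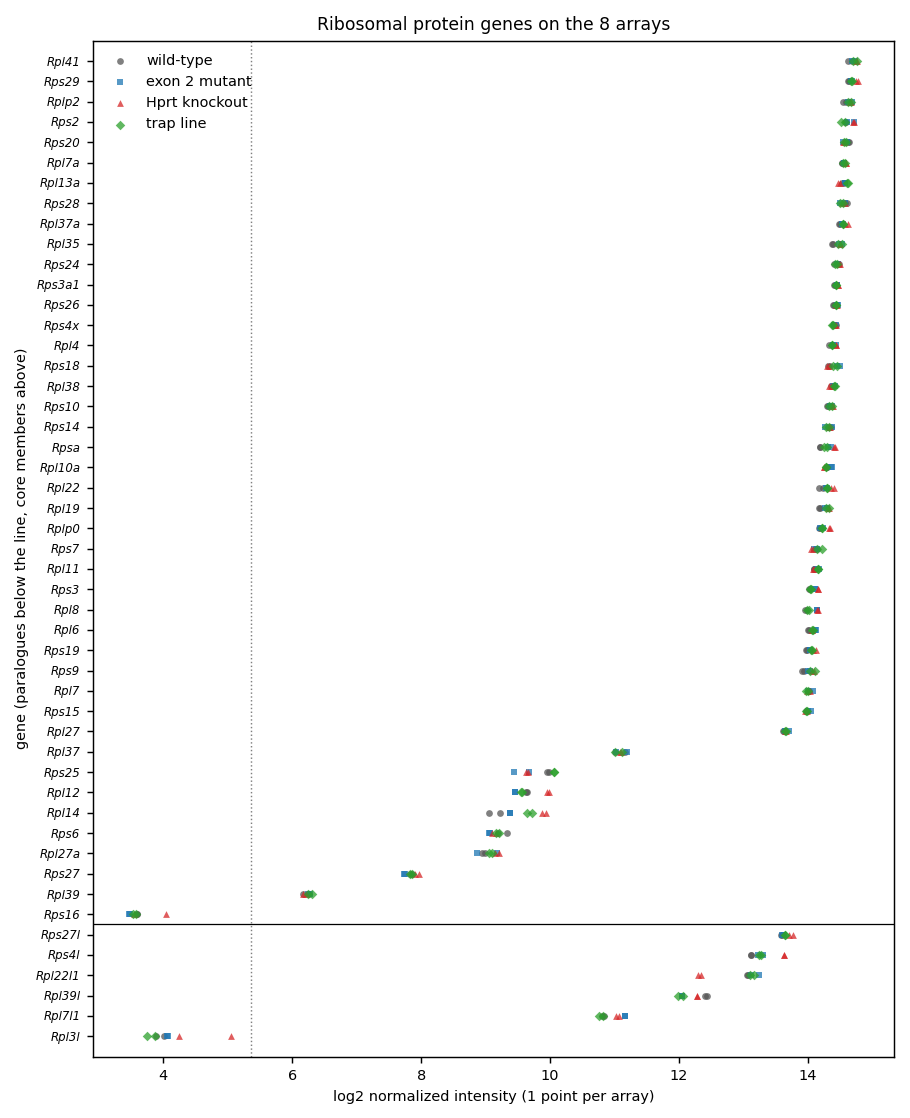
Log2 normalized intensity of each member gene (rows) on the 8 arrays, with 1 point per array coloured by line; core members lie above the horizontal line and paralogues below it, and the dotted line is the mean filter level of 5.35. The 34 bright core members form a column between 13.65 and 14.71 with the points of all lines close together, while Rpl14, Rps25, Rpl12 and the paralogues spread.

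Replicate arrays lay close together for these genes. The SD of the difference between a group's arrays was 0.0230 to 0.0451 over the bright core members. Over the 43 other tested genes with a mean of at least 13.65 it was 0.0351 to 0.0902, and over all tested genes 0.130 to 0.169. The remaining 9 core members had lower signals, from 11.09 for Rpl37 to 3.60 for Rps16. Rps16, a small-subunit protein of the decoding head, read 3.60 and 3.59 in wild-type, 3.49 and 3.47 in the exon 2 mutant, 3.55 and 4.03 in the Hprt knockout and 3.53 and 3.57 in the trap line. It did not pass the filter, and neither did the paralogue Rpl3l, so 42 core members and 5 paralogues were tested. Rps16 had 1 probe set on the array, so no brighter reading of its message was there to use.

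Exon 2 mutant against wild-type sets the line with the Gtf2i exon 2 deletion against a line whose parent is not named. The log2 summed level of feeder markers was 17.35 to 17.38 in the exon 2 mutant and 18.00 to 18.01 in wild-type. Its part in the differences of this comparison was not tested. Rpl14 (0.24), Rpl8 (0.17), Rpsa (0.14) and Rps18 (0.14) were higher in the mutant, and Rps25 (-0.41), Rps6 (-0.21) and Rpl12 (-0.17) were lower, in limma log2 differences. These were 7 of the 42 core members (adjusted p under 0.05, 4 higher and 3 lower), beside 55.5% of all genes tested. Of the 34 bright members 3 passed, or 8.82%, while 32.6% of the 43 other genes with a mean of at least 13.65 did. The median core difference was 0.05 and that of all genes 0.03. The 4 rises held under the scaling of the deposited values only: with cyclic loess between arrays the core split was 0 higher and 4 lower, and with arrays centred on the median of tested genes 0 higher and 5 lower. Leaving out the first or second wild-type array left 3 or 2 core calls, and leaving out the first or second exon 2 mutant array 1 or 3.

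Rps25, a small-subunit protein needed for translation from certain viral entry sites, gave the clearest fall in the exon 2 mutant. It read 9.95 and 9.98 in wild-type, 9.67 and 9.45 in the exon 2 mutant, 9.62 and 9.66 in the Hprt knockout and 10.05 and 10.06 in the trap line. Arrays of the exon 2 mutant and the Hprt knockout were low, overlapped each other, and did not reach the arrays of the other lines. The difference from wild-type was -0.41 ± 0.0758 (SE, n = 2 arrays a group, limma adjusted p = 0.00352) in the exon 2 mutant and -0.32 ± 0.0758 (adjusted p = 0.00674) in the Hprt knockout. Both calls passed in every setting tried. They compare with the same wild-type arrays.

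Rps6, the substrate of S6 kinase in mTOR signalling, read 9.19 and 9.34 in wild-type, 9.06 and 9.05 in the exon 2 mutant, 9.17 and 9.09 in the Hprt knockout and 9.21 and 9.17 in the trap line. By its dim probe set 1453466_at the exon 2 mutant (5.19 and 4.86) overlapped the Hprt knockout (5.04 and 5.18) and the trap line (5.26 and 5.18). By the probe set used, exon 2 mutant arrays were the lowest and did not overlap with any other line. The fall of -0.21 ± 0.0635 (limma adjusted p = 0.0276) was lost without the second wild-type array (-0.14, adjusted p = 0.145), and without either exon 2 mutant array, where adjusted p was 0.0775 and 0.0825.

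Among the bright members, Rpl8, a large-subunit protein close to the peptidyl transferase centre, had the largest difference between exon 2 mutant and wild-type. It read 13.98 and 13.95 in wild-type, 14.14 and 14.14 in the exon 2 mutant, 14.15 and 14.14 in the Hprt knockout and 13.99 and 14.02 in the trap line. The arrays fell into a lower pair of lines, wild-type and trap, and a higher pair, exon 2 mutant and Hprt knockout, with no overlap. The rise was 0.17 ± 0.0466 (limma adjusted p = 0.0172) in the exon 2 mutant and 0.18 ± 0.0466 (adjusted p = 0.00970) in the Hprt knockout, and cyclic loess left 0.12 (adjusted p = 0.0593) and 0.07 (adjusted p = 0.232). Leaving out the second wild-type array ended both calls, at adjusted p = 0.0838 and 0.0542, and leaving out the first or second exon 2 mutant array ended that of the exon 2 mutant at 0.0506 and 0.0521.

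Rps18, in the head of the small subunit, was highest in the exon 2 mutant, with 14.35 and 14.32 in wild-type, 14.45 and 14.49 in the exon 2 mutant, 14.30 and 14.33 in the Hprt knockout and 14.44 and 14.40 in the trap line. Arrays of the exon 2 mutant lay above those of all other lines. The difference from wild-type was 0.14 ± 0.0492 (limma adjusted p = 0.0468), and leaving out any of the 8 arrays took adjusted p to between 0.0690 and 0.164. With the mean of its 6 probe sets in place of the brightest, the value turned to -0.05 (adjusted p = 0.383).

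The Hprt knockout against wild-type comparison concerns the Hprt mutation without a Gtf2i mutation. Core members were mostly higher in the knockout under the deposited scaling, with 11 higher and 1 lower, but with cyclic loess the split turned to 1 higher and 8 lower. The 12 calls of 42 (limma adjusted p under 0.05) stand beside 71.5% of all genes tested. The bright members gave 9 calls of 34, or 26.5%, and the 43 other bright genes 48.8%. The median core difference was 0.06, below the 0.16 of all genes, and cyclic loess took the median of all genes down by 0.156. The rises were led by Rpl14 (0.76), Rpl12 (0.33), Rpsa (0.22), Rpl8 (0.18) and Rpl22 (0.18), and the fall was that of Rps25. Leaving out the first or second wild-type array left 7 or 4 core calls and the first or second Hprt knockout array 5 or 6. All 29 feeder markers fell in the same comparison, by a median of -4.57, and their part in these differences was not tested.

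Rpl14, a large-subunit protein, moved most of all core members by the probe sets used. It had only 1 probe set, with a mean of 9.53, far below the bright members. A dim probe set of Rps9, described further on, moved farther. Rpl14 read 9.06 and 9.22 in wild-type, 9.38 and 9.38 in the exon 2 mutant, 9.87 and 9.93 in the Hprt knockout and 9.73 and 9.64 in the trap line. The lines did not overlap, in the order wild-type, exon 2 mutant, trap line and Hprt knockout. Against wild-type the Hprt knockout was 0.76 ± 0.0689 higher (limma adjusted p = 4.9e-05), the trap line 0.54 ± 0.0689 higher (adjusted p = 0.00105) and the exon 2 mutant 0.24 ± 0.0689 higher (adjusted p = 0.0239). The first pair of calls passed in every setting tried. That of the exon 2 mutant did not pass with cyclic loess (0.12, adjusted p = 0.158), without the first wild-type array (0.15, adjusted p = 0.129) or without either exon 2 mutant array (adjusted p = 0.0756 and 0.0707).

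Rpl12, a protein at the base of the ribosomal stalk, read 9.64 and 9.62 in wild-type, 9.45 and 9.46 in the exon 2 mutant, 9.95 and 9.98 in the Hprt knockout and 9.56 and 9.55 in the trap line. The Hprt knockout arrays were the highest and the exon 2 mutant arrays the lowest, and no lines overlapped. The Hprt knockout lay 0.33 ± 0.0459 above wild-type (limma adjusted p = 0.000460), a call that cyclic loess ended (0.08, adjusted p = 0.192). The difference of the exon 2 mutant from wild-type, -0.17 ± 0.0459 (adjusted p = 0.0157), was lost without either wild-type array (adjusted p = 0.0720 and 0.0534) or without the first exon 2 mutant array (adjusted p = 0.0519).

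Rpsa, which serves both in the small subunit and as the laminin receptor, had the widest span of the bright members. It read 14.19 and 14.19 in wild-type, 14.31 and 14.36 in the exon 2 mutant, 14.41 and 14.41 in the Hprt knockout and 14.30 and 14.26 in the trap line. The wild-type arrays were the lowest and the Hprt knockout arrays the highest. The rise in the Hprt knockout was 0.22 ± 0.0488 (limma adjusted p = 0.00514), or 1.16-fold, and passed without each array in turn, while cyclic loess gave 0.11 (adjusted p = 0.0685). In the exon 2 mutant the 0.14 ± 0.0488 (adjusted p = 0.0416) was lost on leaving out any of the 8 arrays, at adjusted p of 0.0544 to 0.145.

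Rplp0, the stalk protein that holds the Rplp1 and Rplp2 dimers, read 14.17 and 14.19 in wild-type, 14.23 and 14.19 in the exon 2 mutant, 14.33 and 14.34 in the Hprt knockout and 14.21 and 14.23 in the trap line. Only the Hprt knockout arrays stood clear of the others. The difference from wild-type was 0.16 ± 0.0468 (limma adjusted p = 0.0196), and cyclic loess gave 0.05 (adjusted p = 0.399). It also missed the threshold without either wild-type array (adjusted p = 0.0884 and 0.0505) or either Hprt knockout array (0.0698 and 0.0717).

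The trap line against wild-type, with both labelled mutations against neither, had 1 core call of 42, Rpl14, beside 41.1% of all genes tested. None of the 34 bright members passed (limma, adjusted p under 0.05), with 3 at an unadjusted p under 0.05, while 20.9% of the 43 other bright genes passed. The median core difference was 0.04 and that of all genes 0.05. With the variance trend and robust fit of limma the core calls were 11, all of them higher, and under cyclic loess or median centring the split was 1 higher and 1 lower.

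In the trap line against the Hprt knockout, the pair that shares its Hprt genotype, Rps25 (0.41) and Rpl13a (0.13) were higher in the trap line and Rpl12 (-0.41), Rpl14 (-0.22), Rps2 (-0.16), Rpl8 (-0.14) and Rpsa (-0.13) were lower in limma log2 differences. These 7 of 42 core calls stand beside 68.4% of all genes tested. The direction of the set was not fixed: the 2 higher and 5 lower became 8 higher and 1 lower with cyclic loess and 1 higher and 13 lower with median centring. Cyclic loess moved the median of all genes up by 0.136 in this comparison. Of the bright members 4 of 34 passed, and 48.8% of the 43 other bright genes. Feeder markers went the other way from the comparison of Hprt knockout with wild-type, with 27 of 29 higher in the trap line by a median of 3.91, and their part in these differences was not tested.

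The differences of Rps25, 0.41 ± 0.0758 (limma adjusted p = 0.00216), and Rpl12, -0.41 ± 0.0459 (adjusted p = 0.000185), between trap line and Hprt knockout passed in every setting tried. That of Rpl14, -0.22 ± 0.0689 (adjusted p = 0.0250), did not pass with cyclic loess (-0.05, adjusted p = 0.556), without the second Hprt knockout array (adjusted p = 0.111) or without the second trap array (adjusted p = 0.130). Rpl13a, a large-subunit protein also found in an inhibitor complex of translation in interferon-treated cells, was 14.56 and 14.52 in wild-type, 14.58 and 14.58 in the exon 2 mutant, 14.49 and 14.47 in the Hprt knockout and 14.61 and 14.62 in the trap line. By this probe set and 1417608_a_at the Hprt knockout arrays were the lowest and the trap arrays the highest. By 1455001_x_at and 1433928_a_at wild-type was lowest instead. By the latter the Hprt knockout (12.56 and 12.66) overlapped the trap line (12.60 and 12.63). Rpl13a did not pass with the mean of all its probe sets (0.11, limma adjusted p = 0.0739) or with median centring (0.05, adjusted p = 0.453). Its call, at adjusted p = 0.0360, failed when either wild-type, either Hprt knockout or either trap array was left out, with adjusted p up to 0.131. Rps2, which lies at the messenger RNA entry of the small subunit, read 14.51 and 14.58 in the trap line and 14.70 and 14.71 in the Hprt knockout, without overlap, and its call (adjusted p = 0.0371) failed on leaving out the same arrays, with adjusted p up to 0.170. Cyclic loess ended the calls of Rpl8 (-0.06, adjusted p = 0.305) and Rpsa (-0.06, adjusted p = 0.344). That of Rpl8 was also lost without either Hprt knockout or either trap array, and that of Rpsa without those or either wild-type array, with adjusted p up to 0.134 and 0.196. The 7 core calls became 3 or 2 without the first or second Hprt knockout array, 3 or 2 without the first or second trap array, and 4 without either wild-type array.

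Between exon 2 mutant and Hprt knockout, differences passed at 5 of 42 core members, beside 61.2% of all genes tested. Rps18 was higher (0.15 ± 0.0492, limma adjusted p = 0.0300) and Rpl14 (-0.53 ± 0.0689, adjusted p = 0.000529), Rpl12 (-0.51 ± 0.0459, adjusted p = 8.85e-05), Rps27 (-0.19 ± 0.0479, adjusted p = 0.0107) and Rplp0 (-0.13 ± 0.0468, adjusted p = 0.0490) were lower. The call of Rplp0 was lost on leaving out any of the 8 arrays, at adjusted p of 0.0704 to 0.151, and with cyclic loess (adjusted p = 0.259). That of Rps18 was lost without the second exon 2 mutant array (adjusted p = 0.107) or either Hprt knockout array (0.119 and 0.0753) and with median centring (0.377), and the mean of its probe sets gave -0.030. The split of 1 higher and 4 lower turned to 4 higher and 2 lower with cyclic loess, and to 0 higher and 11 lower with median centring. Of the bright members 2 of 34 passed, and 34.9% of the 43 other bright genes. Rpl14 and Rpl12 passed in every setting tried. Without the first or second Hprt knockout array 2 or 3 core calls were left, and without the second exon 2 mutant array 3. All 29 feeder markers were higher in the exon 2 mutant, by a median of 3.87, which was not tested as a part of these differences.

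Between exon 2 mutant and trap line, differences passed at Rps25 (-0.50 ± 0.0758, limma adjusted p = 0.00163) and Rpl14 (-0.31 ± 0.0689, adjusted p = 0.00907) only, 2 of 42 core members, both lower in the exon 2 mutant, beside 49.2% of all genes tested. With cyclic loess the split was 0 higher and 4 lower. The call of Rpl14 was lost without the first trap array (-0.27, adjusted p = 0.0594), which left 1 core call, while that of Rps25 passed in every setting tried. None of the 34 bright members passed in limma, with 1 at an unadjusted p under 0.05, and 23.3% of the 43 other bright genes did.

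**Figure D2:**
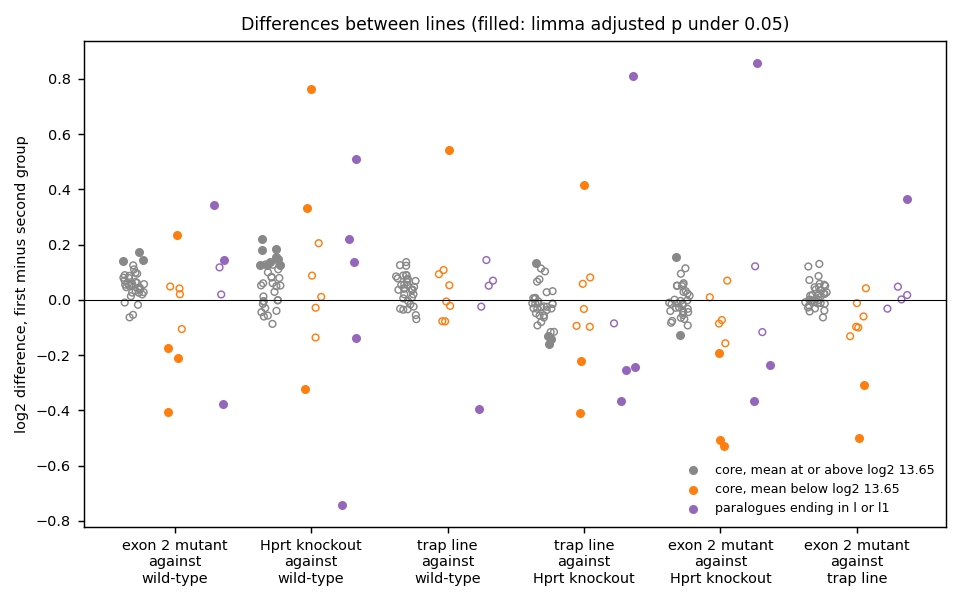
Log2 difference between the first and second line of each of the 6 comparisons, 1 point per tested gene, grouped into bright core members, dimmer core members and paralogues; filled points passed limma at an adjusted p under 0.05. Bright core members stay within 0.22 of 0 in every comparison, while Rpl14, Rpl12, Rps25 and the paralogues reach farther; with cyclic loess the core calls of Hprt knockout against wild-type turn from 11 higher and 1 lower to 1 higher and 8 lower.

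Across all lines, a moderated F test called 6 of 42 core members, beside 81.7% of all genes tested: Rpl14 (limma adjusted p = 0.000168), Rpl12 (0.000185), Rps25 (0.00150), Rpl8 (0.0172), Rpsa (0.0211) and Rps27 (0.0387). Rpl14, Rpl12 and Rps25 were each measured by their only probe set, with means of 9.53, 9.65 and 9.81, and Rps27 by its only probe set at 7.84. No other reading of these messages was there to set beside them. Among the bright members it called 2 of 34, and 53.5% of the 43 other bright genes. By subunit the F test called 15% of small-subunit and 13.6% of large-subunit members tested. Leaving out the second wild-type array or the first Hprt knockout array reduced the 6 to 3, and the variance trend with robust fit raised it to 24. The 42 tested core members lie on 15 chromosomes, with Rps4x and Rpl39 on X.

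The paralogues are described gene by gene. Of the 5 tested, the F test called 4, beside 81.7% of all genes. Against wild-type, limma called 3 in the exon 2 mutant (2 higher and 1 lower, beside 55.5% of all genes), 5 in the Hprt knockout (3 and 2, beside 71.5%) and 1 in the trap line (lower, beside 41.1%). Against the Hprt knockout it called 4 in the trap line (1 higher and 3 lower, beside 68.4%) and 3 in the exon 2 mutant (1 and 2, beside 61.2%), and between exon 2 mutant and trap line 1 (higher, beside 49.2%). With 5 genes, these counts are a description and set nothing apart from other genes.

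Rpl22l1, the paralogue of Rpl22 that can replace it in the large subunit, was lower in the Hprt knockout than in any other line. It read 13.05 and 13.07 in wild-type, 13.24 and 13.12 in the exon 2 mutant, 12.30 and 12.35 in the Hprt knockout and 13.10 and 13.17 in the trap line. The Hprt knockout arrays lay far below the other 6, which were close together. The fall from wild-type was -0.74 ± 0.0603 (limma adjusted p = 2.97e-05), or 1.67-fold, and against the Hprt knockout the trap line was 0.81 ± 0.0603 higher (adjusted p = 2.39e-05) and the exon 2 mutant 0.86 ± 0.0603 higher (adjusted p = 2.54e-05). All 3 calls passed in every setting tried, cyclic loess (-0.90 against wild-type) included. Rpl22 itself read 14.23 and 14.17 in wild-type, 14.29 and 14.29 in the exon 2 mutant, 14.41 and 14.36 in the Hprt knockout and 14.29 and 14.29 in the trap line. Its Hprt knockout arrays were the highest by this probe set and by 1416603_at. By 1448398_s_at the trap line was highest, at 10.82 and 10.88. The Hprt knockout there read 10.35 and 10.19, beside 10.34 and 10.29 in wild-type. By the probe set used, the rise of the Hprt knockout over wild-type was 0.18 ± 0.0495 (limma adjusted p = 0.0129). That rise, read from a probe set ending in _s_at, did not pass with the mean of all its probe sets (0.09, adjusted p = 0.186), without probe sets ending in _x_at or _s_at (0.13, adjusted p = 0.0870) or with cyclic loess (0.08, adjusted p = 0.208). Nor did it pass without the second wild-type array (0.15, adjusted p = 0.0748) or without the first Hprt knockout array (0.16, adjusted p = 0.0733).

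Rps4l, the autosomal paralogue of X-linked Rps4x in the small subunit, was highest in the Hprt knockout. It read 13.11 and 13.12 in wild-type, 13.23 and 13.30 in the exon 2 mutant, 13.62 and 13.63 in the Hprt knockout and 13.28 and 13.24 in the trap line. The wild-type arrays were lowest, the exon 2 mutant and trap arrays overlapped, and the Hprt knockout arrays were clear of all others. The Hprt knockout lay 0.51 ± 0.0497 above wild-type (limma adjusted p = 7.18e-05), and the trap line (-0.37 ± 0.0497, adjusted p = 0.000482) and exon 2 mutant (-0.36 ± 0.0497, adjusted p = 0.000647) lay below the Hprt knockout, in every setting tried. The rise of the exon 2 mutant over wild-type, 0.15 (adjusted p = 0.0412), was lost under cyclic loess (0.08, adjusted p = 0.207) and on leaving out 7 of the 8 arrays in turn. Rps4x read 14.43 and 14.39 in wild-type, 14.44 and 14.41 in the exon 2 mutant, 14.42 and 14.43 in the Hprt knockout and 14.39 and 14.38 in the trap line, with a span of 0.038 between group means and no call.

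Rpl39l, the autosomal paralogue of X-linked Rpl39 at the exit tunnel of the large subunit, known from testis, was highest in wild-type. It read 12.44 and 12.40 in wild-type, 12.05 and 12.04 in the exon 2 mutant, 12.28 and 12.29 in the Hprt knockout and 12.06 and 11.99 in the trap line. Both Gtf2i-mutant lines were low and overlapped, the Hprt knockout was between, and wild-type was above all. The exon 2 mutant lay -0.38 ± 0.0502 (limma adjusted p = 0.000781) and the trap line -0.39 ± 0.0502 (adjusted p = 0.00108) from wild-type, in every setting tried, and these contrasts share the wild-type arrays. Against the Hprt knockout the difference was -0.25 ± 0.0502 (adjusted p = 0.00320) for the trap line and -0.24 ± 0.0502 (adjusted p = 0.00544) for the exon 2 mutant, and cyclic loess took these to -0.13 (adjusted p = 0.0631) and -0.13 (adjusted p = 0.0562). The Hprt knockout's -0.14 against wild-type (adjusted p = 0.0401) was lost on leaving out any of the 8 arrays, at adjusted p of 0.0502 to 0.160. The single probe set of Rpl39 read 6.16 to 6.30 over the 8 arrays, close to the filter level of 5.35, with no call.

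Rpl7l1, a relative of Rpl7 that takes part in assembly of the large subunit, read 10.84 and 10.81 in wild-type, 11.17 and 11.16 in the exon 2 mutant, 11.07 and 11.02 in the Hprt knockout and 10.83 and 10.77 in the trap line. By this probe set exon 2 mutant arrays were highest, Hprt knockout arrays next, and wild-type and trap arrays were low and overlapped. The exon 2 mutant was 0.34 ± 0.0506 above wild-type (limma adjusted p = 0.00123) and 0.37 ± 0.0506 above the trap line (adjusted p = 0.00109), in every setting tried. Its other probe sets gave 0.29 and 0.58 against wild-type, both called in the fit over all 28786 tested probe sets, and 0.43 and 0.59 against the trap line. The Hprt knockout stood 0.22 ± 0.0506 above wild-type (adjusted p = 0.00601) and cyclic loess turned this to -0.0036 (adjusted p = 0.956). It also ended the difference between trap line and Hprt knockout, -0.24 ± 0.0506 (adjusted p = 0.00402), at -0.09 (adjusted p = 0.157). Rpl7 read 13.97 to 14.08 over the 8 arrays with no call.

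Rps27l, a homologue of Rps27 known as a p53 target, read 13.59 and 13.60 in wild-type, 13.63 and 13.60 in the exon 2 mutant, 13.70 and 13.76 in the Hprt knockout and 13.64 and 13.65 in the trap line. The Hprt knockout arrays were the highest. The rise over wild-type was 0.14 ± 0.0483 (limma adjusted p = 0.0378), and cyclic loess gave 0.0036 (adjusted p = 0.952). It also failed without either wild-type, either Hprt knockout or either trap array, at adjusted p up to 0.178. Rps27 was 7.86 and 7.83 in wild-type, 7.73 and 7.74 in the exon 2 mutant, 7.96 and 7.91 in the Hprt knockout and 7.83 and 7.85 in the trap line, lowest in the exon 2 mutant and highest in the Hprt knockout. The difference between those 2 lines, given above, was lost with cyclic loess (-0.07, adjusted p = 0.237) and without the first Hprt knockout array (-0.17, adjusted p = 0.0634). Rpl3l, the striated muscle paralogue of Rpl3, read 3.74 to 5.04 and was not tested.

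**Figure D3:**
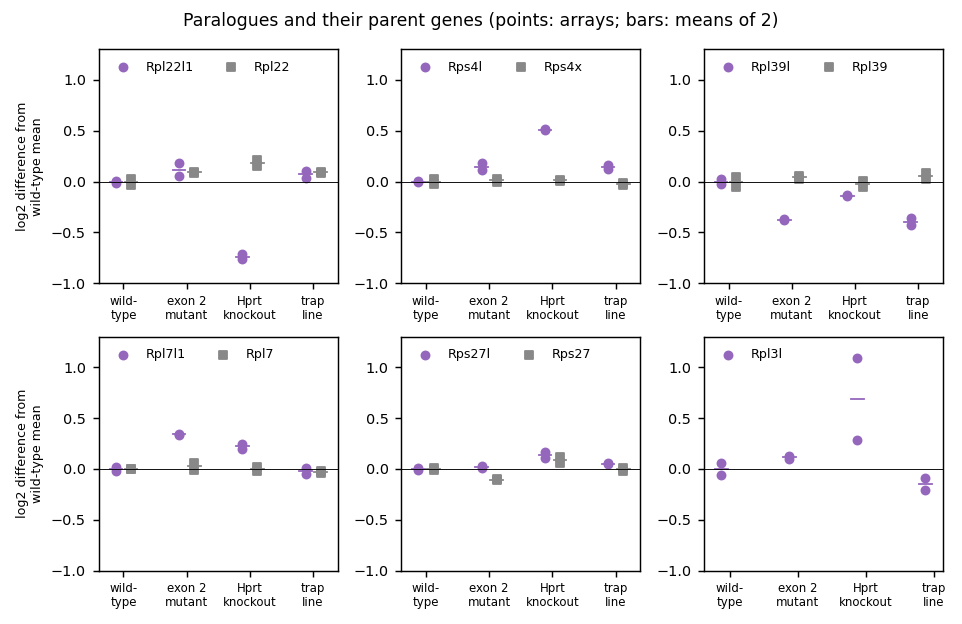
Log2 difference of each array from the wild-type mean for the 6 paralogues (purple circles) and their parent genes (grey squares), in the 4 lines; points are arrays and bars are means of 2. Rpl22l1 falls by 0.74 and Rps4l rises by 0.51 in the Hprt knockout, and Rpl39l lies 0.38 and 0.39 lower in the exon 2 mutant and trap line. Rpl3l has no parent among the members and was below the filter.

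The difference of effects, exon 2 mutant minus wild-type less trap line minus Hprt knockout, was tested in the same fit. It compares pairs of lines, so mutation, line and batch cannot be told apart in it. It passed for 8 of 42 core members (6 positive and 2 negative), beside 69.7% of all genes tested, and for 3 of 5 paralogues. Of the 34 bright members 4 passed, and 44.2% of the 43 other bright genes. Rps25 had the largest value among core members (-0.82 ± 0.107, limma adjusted p = 0.000359): it was lower in the exon 2 mutant than wild-type, and higher in trap cells than Hprt knockout cells. Rpl14 (0.45 ± 0.0974, adjusted p = 0.00444) and Rpl8 (0.31 ± 0.0659, adjusted p = 0.00409) had the opposite pattern. Without the second wild-type, the second Hprt knockout or the first trap array 5 core members passed. With 1 control carrying few feeder markers and the other many, the part of feeder markers in these values was not tested.

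The choice of probe set mattered for the level and the calls. The members had 105 probe sets in all, and 24 members had more than 1. In the fit over all 28786 tested probe sets, 57 probe sets of core members had a mean of at least 13.65 and 32 a lower one. Against wild-type, the exon 2 mutant differed at 1 of the 57 bright and 14 of the 32 dimmer probe sets. These stand beside 46.3% of all probe sets. The 14 were 2 higher and 12 lower, a split that was not counted over all probe sets. From wild-type the Hprt knockout differed at 5 of 57 and 9 of 32, beside 64%. The trap line did so at 0 of 57 (1 at an unadjusted p under 0.05 in limma) and 10 of 32, beside 35.1%. Probe sets of other genes were called in 13.8%, 25.7% and 9.58% at that level or above and in 46.6%, 64.4% and 35.3% below it. Between trap line and Hprt knockout 1 of 57 and 9 of 32 differed, beside 58.9% of all probe sets. Comparisons of the exon 2 mutant with the Hprt knockout and with the trap line gave 13 and 8 of the 32 dimmer probe sets, beside 53.8% and 42.5%, and 0 of the 57 in each (limma, with 3 and 1 at an unadjusted p under 0.05). Of the 21 members with several tested probe sets, 0 had calls in opposite directions within a comparison in that fit. With 0 to 5 of the 57 bright probe sets called, there was little room for such a pair. That count is therefore no measure of agreement between probe sets, and signs did differ within genes, as for Rpl41 below.

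Rps9, a small-subunit protein at the messenger RNA entry, had the largest such split. Its bright probe set 1433689_s_at read 13.91 to 14.10 on the 8 arrays, and its difference between exon 2 mutant and wild-type, 0.10, did not pass. Its probe set 1426958_at read 8.46 and 8.61 in wild-type, 7.54 and 7.59 in the exon 2 mutant, 8.29 and 8.21 in the Hprt knockout and 8.15 and 8.18 in the trap line. The exon 2 mutant arrays of that probe set were the lowest and wild-type the highest, with a difference of -0.96 (limma adjusted p = 9.91e-05 over all probe sets). Its remaining probe set, 1434624_x_at, differed by 0.0069.

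Rpl41 showed a like split. Its probe set 1433530_at read 9.47 and 9.55 in wild-type, 8.92 and 8.76 in the exon 2 mutant, 9.25 and 9.28 in the Hprt knockout and 9.10 and 9.05 in the trap line, where wild-type was highest and the exon 2 mutant lowest. The difference of the exon 2 mutant from wild-type was -0.67 by that probe set (limma adjusted p = 0.000442) and -0.34 by 1454639_x_at (adjusted p = 0.00585). The bright probe sets 1422623_x_at and 1455578_x_at gave 0.05 and 0.14, neither of which passed. Endings _x_at and _s_at mark probe sets that can bind messages of several genes or pseudogenes, and ribosomal proteins have many processed pseudogenes. Such probe sets represent 13 of the 43 core members here.

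For Rps20, also in the head of the small subunit, the dim probe set 1421935_at read 7.15 and 7.24 in wild-type, 7.08 and 7.05 in the exon 2 mutant, 6.61 and 6.62 in the Hprt knockout and 7.38 and 7.32 in the trap line. The Hprt knockout arrays were the lowest by that probe set and by 1450417_a_at, at -0.58 (limma adjusted p = 0.000127) and -0.78 (adjusted p = 0.000855) against wild-type. By the bright probe sets 1456436_x_at and 1456373_x_at the difference was -0.09 and -0.11, neither of which passed. Not all dimmer probe sets fell. For Rps3, 1455600_at read 10.30 and 10.28 in wild-type and 10.67 and 10.66 in the exon 2 mutant.

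**Figure D4:**
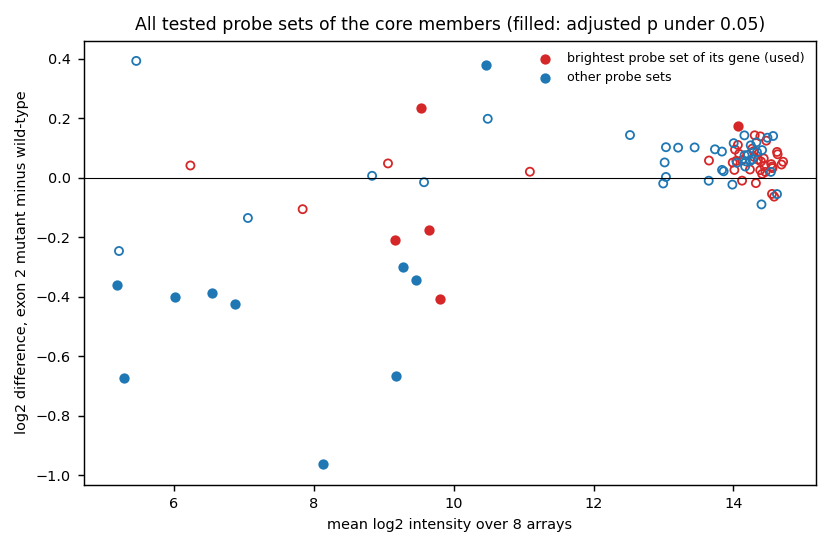
Log2 difference between exon 2 mutant and wild-type against mean log2 intensity over 8 arrays for each tested probe set of the core members, red for the brightest probe set of its gene and blue for the others; filled points passed limma at an adjusted p under 0.05 over all probe sets. Of the 57 probe sets with a mean of at least 13.65 only 1 passed, and of the 32 below it 14 did, reaching -0.96 for a probe set of Rps9.

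Genes that make and use ribosomes were followed as lists beside the members. In the Hprt knockout against wild-type, 32 of 44 ribosome assembly and nucleolar genes, 26 of 32 RNA polymerase I and III genes, 68 of 76 mitochondrial ribosomal proteins and 13 of 23 translation factors and other TOP genes rose and 0 of each fell, while cyclic loess gave 25 higher and 8 lower, 22 and 2, 54 and 4, and 9 and 4. Over all genes tested 46.4% were higher and 25.1% lower. Their median log2 differences were 0.44, 0.54, 0.50 and 0.19, beside 0.16 for all genes and 0.06 for the core ribosomal proteins. Most of the core is read near the array maxima, and whether this limits how far it can rise was not tested. Of the 43 other genes as bright 48.8% passed, in either direction. Rrp12, needed for export of the small subunit, rose by 0.82 ± 0.0579 (limma adjusted p = 1.41e-05). Polr3c, a subunit of RNA polymerase III, rose by 1.32. Mrpl38 of the mitochondrial ribosome rose by 1.04, and the initiation factors Eif3l and Eif4b by 0.60 and 0.52. In this comparison all 29 feeder markers fell, and their part in the rises was not tested.

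In the trap line against the Hprt knockout, 26.6% of all genes were higher and 41.8% lower. Of ribosome assembly genes 0 were higher and 36 lower, of RNA polymerase genes 0 and 25, of mitochondrial ribosomal proteins 2 and 61, and of TOP genes 1 and 12, with 0 and 28, 0 and 20, 6 and 42, and 3 and 4 under cyclic loess. Medians were -0.43, -0.46, -0.37 and -0.13, beside -0.13 for all genes. Rrp12 differed by -0.99 ± 0.0579 (limma adjusted p = 6.96e-06), Polr3c by -0.99, Mrps27 by -0.85 and Eif4ebp1, the mTOR-controlled repressor of cap-dependent translation, by -0.75. Mrps6 was 0.65 higher in the trap line. The 12 lower TOP genes became 7 or 5 without the first or second Hprt knockout array and 7 or 4 without the first or second trap array. These values share the Hprt knockout arrays with the comparison before. Feeder markers were higher at 27 of 29, and their part was not tested.

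In the exon 2 mutant against wild-type the lists were divided. Beside 32.5% of all genes higher and 23.1% lower, ribosome assembly genes gave 17 higher and 10 lower of 44, RNA polymerase genes 18 and 8 of 32, mitochondrial ribosomal proteins 30 and 9 of 76, and TOP genes 9 and 0 of 23, which cyclic loess changed to 9 and 16, 11 and 10, 20 and 20, and 6 and 0. Nop58, a core protein of box C/D particles, was higher by 0.52 and Riok2, a kinase of late small-subunit assembly, differed by -0.90. Elongation factor Eef2 was 0.31 and Nap1l1 0.37 higher. In the trap line against wild-type, beside 26.5% of all genes higher and 14.6% lower, the counts were 3 and 8 of 44 assembly genes, 10 and 3 of 32 polymerase genes, 33 and 2 of 76 mitochondrial ribosomal proteins and 3 and 1 of 23 TOP genes, which cyclic loess changed to 1 and 16, 4 and 5, 24 and 8, and 2 and 1. The 17 higher assembly genes of the exon 2 mutant became 10 without the first wild-type array and 11 without its second array. Its 8 lower polymerase genes became 4 without the second wild-type array and 5 without its second array, and its 9 lower mitochondrial ribosomal proteins 4 without either wild-type array. In the trap line the 8 lower assembly genes became 5, 4, 4 and 4 without each wild-type and each trap array, and the 3 higher became 1 without the first wild-type or either trap array. The 33 higher mitochondrial ribosomal proteins of the trap line became 20 without the first wild-type or the first trap array, and its 10 higher polymerase genes 5, 6, 4 and 4 without each wild-type and each trap array. Feeder markers were lower at 27 of 29 in the exon 2 mutant and at 15 of 29 in the trap line, with 4 higher there, and their part was not tested.

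Among 19 regulators of ribosome production, Myc and Mycn, the transcription factors that drive ribosome genes, moved in opposite directions. In the Hprt knockout Mycn differed from wild-type by 1.55 ± 0.0621 (limma adjusted p = 9.09e-07) and Myc by -1.61 ± 0.0728 (adjusted p = 1.70e-06). In the exon 2 mutant the values were 1.36 for Mycn and -0.98 for Myc. In the trap line against the Hprt knockout they were -1.23 for Mycn and 1.35 for Myc. The list as a whole had 11 higher and 2 lower of 19 in the Hprt knockout (7 and 5 with cyclic loess), 11 and 2 in the exon 2 mutant (6 and 3) and 8 and 3 in the trap line, each against wild-type. These are 68.4%, 68.4% and 57.9% of the list, beside 71.5%, 55.5% and 41.1% of all genes. Feeder markers were lower at 29, 27 and 15 of 29 in the same comparisons, and their part was not tested. In the same comparisons the core ribosomal proteins, most of them read near the array maxima, had medians of 0.06, 0.05 and 0.04. Leaving out the second exon 2 mutant array left 6 of the 11 rises of the list there, and the first wild-type array or either trap array left 5 of the 8 rises in the trap line.

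**Figure D5:**
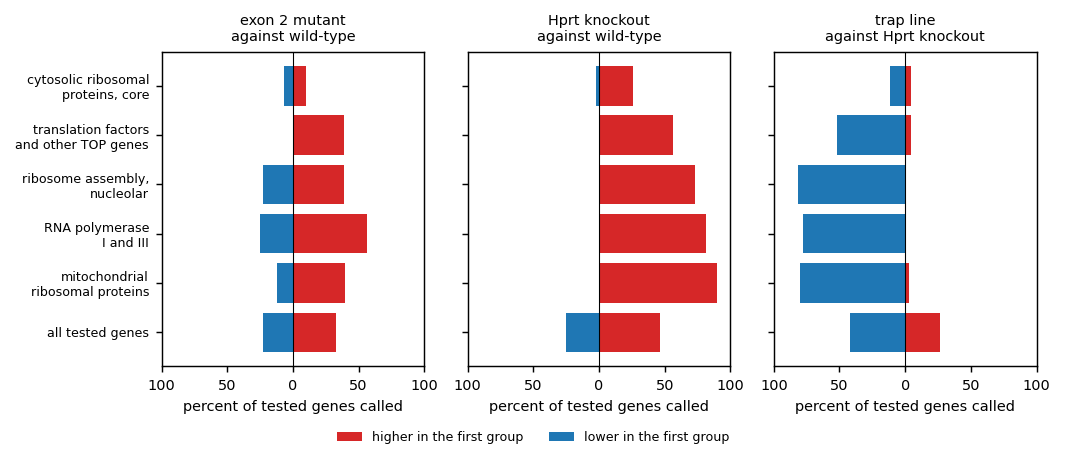
Percent of the tested genes of each list that passed limma at an adjusted p under 0.05, higher (red, to the right) and lower (blue, to the left) in the first line, for 3 comparisons; the lowest bar is all tested genes. In the Hprt knockout against wild-type 28.6% of core members passed against 89.5% of mitochondrial ribosomal proteins and 71.5% of all genes. Most core members are read near the array maxima, and of the 43 other genes as bright 48.8% passed. With cyclic loess the core split turns from 11 higher and 1 lower to 1 and 8.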

How the data were processed

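Total RNA of 8 arrays in 4 groups was hybridised to an Affymetrix mouse array. The values deposited by the authors are log2 normalized intensities of 45101 probe sets, made with RMA per the submitters' processing notes (version not given in the sources used here). RMA normalizes arrays by quantiles, so a change in total RNA or a shift of most genes is not visible. Probe sets were named through the platform annotation: 34945 had 1 symbol, 932 had several and were not named, and 64 controls were left out. Each of 18193 genes was represented by its brightest probe set. Genes above the 40th percentile of an array (log2 5.35 on average) on at least 2 of 8 arrays were tested, which left 13819.

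Tests used limma 3.58.1 in R 4.3.3: 4 group means, lmFit and eBayes over all arrays (4 residual degrees of freedom, 6.86 after moderation), two-sided, with Benjamini-Hochberg adjustment over all tested genes within a comparison at 0.05. Errors are limma standard errors. With 2 arrays a group, the smallest p an exact permutation test allows is 0.333. The number of arrays limits the precision. The members, lists and rules were chosen with earlier results of these data known, and the fit was tested on simulated data. The rule for named genes took from each comparison the 4 core calls with the largest rise and fall and no overlap between groups, the 5 core members that varied most between groups, the core members with the lowest and highest mean, all paralogues with their parents, and up to 3 rises and 3 falls per list, of which some are printed. Rps9, Rps20 and all probe set examples were chosen after their values were seen. Alternatives were other probe set rules, filters, scalings (cyclic loess, median centring), a variance trend with robust fit, the replicate number as a block, fits of only the compared arrays and leaving out each array; the fit without the Hprt knockout arrays was added after the data were seen.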

Additional observations from a re-analysis of the deposited data

Results flagged for a closer look

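The exon 2 effect is here exon 2 mutant minus wild-type, and the trap effect is trap line minus Hprt knockout. Each sets a line against another, so mutation, line and batch cannot be told apart. For 10 members, among 47 tested, these effects differed by a test of the difference itself in limma. Among all genes tested, 69.7% passed the same test. The difference, exon 2 effect minus trap effect on the log2 scale, was -0.82 for Rps25 (SE 0.107, adjusted p = 0.000359), -0.69 for Rpl22l1 (SE 0.0853, adjusted p = 0.000265), 0.59 for Rpl7l1 (SE 0.0716, adjusted p = 0.000253) and 0.51 for Rps4l (SE 0.0703, adjusted p = 0.000467). These 4 passed in each of the 17 alternatives run. Rpl8, at 0.31 (SE 0.0659, adjusted p = 0.00409), did too.

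Rpl14 had a difference of 0.45 (SE 0.0974, adjusted p = 0.00444), Rpsa 0.27 (SE 0.0690, adjusted p = 0.00946) and Rpl12 0.23 (SE 0.0650, adjusted p = 0.0144). Cyclic loess ended these 3 calls, at 0.17 (adjusted p = 0.147), 0.15 (adjusted p = 0.0829) and -0.05 (adjusted p = 0.543). Rps6, at -0.27 (SE 0.0898, adjusted p = 0.0318), and Rps2, at 0.25 (SE 0.0794, adjusted p = 0.0261), were each lost on leaving out 6 of the 8 arrays in turn, with adjusted p up to 0.0947 and 0.0867. Cyclic loess ended the call of Rps2 too (0.14, adjusted p = 0.146).

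In Rpl22l1, Rps4l, Rpl14, Rpl12, Rpsa and, narrowly, Rpl8 the Hprt knockout arrays lay outside the range of the arrays of all other lines. The log2 summed level of feeder markers was 14.47 to 14.48 in those arrays and 17.35 to 18.01 in the others. Its part in the differences of all 10 members was not tested.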

How the results depend on the processing

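Counts are core members called by limma, first as reported and then under an alternative that moved them by more than 1.5 times. Exon 2 mutant against wild-type gave 7, and 4 with cyclic loess, 17 with the variance trend and 1 with only the compared arrays. Hprt knockout against wild-type gave 12, and 7 with no filter on dim genes, 22 with the variance trend, 7 with all probe sets tested and 7 with the replicate block. Trap line against wild-type gave 1, and 3 with the mean of all probe sets of a gene, 5 with no probe sets ending in _x_at or _s_at, 3 with the 60th percentile filter, 2 with cyclic loess, 2 with centred arrays and 11 with the variance trend. Trap line against Hprt knockout gave 7, and 3 with no filter, 14 with centred arrays, 16 with the variance trend, 3 with all probe sets, 4 with the replicate block and 4 with only the compared arrays. Exon 2 mutant against Hprt knockout gave 5, and 9 with the mean of probe sets, 3 with no filter, 11 with centred arrays, 12 with the variance trend, 3 with all probe sets, 3 with the replicate block and 3 with only the compared arrays. Exon 2 mutant against trap line gave 2, and 4 with the mean of probe sets, 6 without _x_at or _s_at, 4 with cyclic loess and 6 with the variance trend. The difference of both effects gave 8, and 21 with the variance trend. The F test gave 6, and 10 with the mean of probe sets, 11 without _x_at or _s_at, 10 with cyclic loess, 12 with centred arrays and 24 with the variance trend.

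Leaving out each array in turn gave 1 to 5 core calls for exon 2 mutant against wild-type, 4 to 11 for Hprt knockout against wild-type, 1 for trap line against wild-type each time, 2 to 7 for trap line against Hprt knockout, 2 to 6 for exon 2 mutant against Hprt knockout, 1 to 3 for exon 2 mutant against trap line, 5 to 7 for the difference of effects and 3 to 6 for the F test. A lone array is there assumed to vary like the other groups. The fit without the Hprt knockout arrays, chosen after seeing the data, gave 5, 1 and 2 core calls for the 3 comparisons it allows. Deviations of same-numbered arrays correlated at 0.140 between wild-type and trap line and at 0.175 between exon 2 mutant and Hprt knockout. In the other pairs of groups the correlations were negative, from -0.125 to -0.275. The numbers therefore do not pair the arrays across all 4 groups, and a factor shared by some of the arrays was not tested. With the replicate block the counts not yet given were 5 for exon 2 mutant against wild-type and 1 for trap line against wild-type. They were 2 for exon 2 mutant against trap line, 6 for the difference of effects and 5 for the F test.

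Of 56 values of named members that passed, 24 did so in all settings run, and 32 missed the threshold in at least 1. Values that turned sign were Rpl41 with the mean of probe sets (-0.20 in the exon 2 mutant) and without _x_at or _s_at probe sets (-0.67, -0.25 and -0.44 in the exon 2 mutant, Hprt knockout and trap line against wild-type, and -0.48 for the difference of effects). Rps18 with the mean of probe sets gave -0.054 against wild-type and -0.030 against the Hprt knockout in the exon 2 mutant. With cyclic loess, Rpl7l1 in the Hprt knockout gave -0.0036 and the difference of effects of Rpl12 -0.051. The cause was not tested. There were 2 arrays a group. Bright signals lie near the array maximum of 15.03 to 15.09, which may limit the range in which the core can be read. That was not tested.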
